A study of Mus musculus with 6 samples.

Results

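The genes of cholesterol and fatty acid synthesis were followed in mouse AML cells with and without *Phf6*, as a set of 33 genes chosen by name among the 54532 genes of the expression table. They comprise 7 enzymes of the mevalonate arm, 11 enzymes of the sterol arm, 7 genes that sense or answer to sterol levels, and 8 genes of fatty acid synthesis and desaturation. All 33 were found in the table. The cells were GFP+ leukemia cells sorted from the bone marrow of mice whose disease was driven by a retrovirus carrying RUNX1-ETO9a (RE9a), a short form of the t(8;21) fusion protein, in fetal liver cells that were then passed serially into male recipients. *WT Phf6,RE9a* cells (replicates 1, 2 and 3) carried the floxed *Phf6* allele without Cre (Phf6 fl/y), and *VC Phf6,RE9a* cells (replicates 11, 12 and 13) carried it together with Vav1-Cre, a transgene that is active throughout blood cells, so both groups share the virus and the floxed allele. The labels give neither the age of the mice, nor the transplant passage, nor the animal behind each library, and the p-values measure only the spread between these libraries, which may be technical.

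Cholesterol is built from acetyl-CoA by way of mevalonate, isoprenoid units, squalene and lanosterol, and fatty acids are built from the same acetyl-CoA by carboxylation, chain extension and desaturation. Most enzymes of both routes are transcribed under the SREBP factors, which are held in the endoplasmic reticulum by SCAP and the INSIG proteins when sterols are plentiful and are cut free when sterols run low. Dividing blood cells and leukemia cells draw on both routes for membranes.

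The libraries held between 15675358 and 16817994 counts, and 3 counts, which is as many as a count of 0 could hide, equal 0.178 to 0.191 CPM (counts scaled to library size), counting error alone considered. That range uses the raw library totals, whereas all other CPM values carry TMM scaling as well. With TMM scaling, 3 counts per library equal 0.193 CPM in the mean of the *WT Phf6,RE9a* libraries. Counts of the deleted gene, *Phf6*, were 1044, 827 and 1142 with the intact gene and 388, 314 and 331 in *VC Phf6,RE9a* libraries, without overlap. Its log2 fold change was -1.66 with a standard error of 0.13 and an adjusted p of 9.32e-05 (edgeR quasi-likelihood, Benjamini-Hochberg over 14169 genes, as for every adjusted p given here). The second component of a principal component analysis, with 7.01% of the variance, set *WT Phf6,RE9a* replicate 2 (-42.5) apart from replicates 1 and 3 (29.5 and 14.7). Marker lists of several blood cell types and of proliferation moved with the groups. Whether these markers came from the leukemia cells themselves or from other cells was not tested. The paper reports a lower percentage of GFP+ c-Kit+ cells and a higher one of Mac-1+ cells without *Phf6*. It reads this as differentiation of the leukemia cells. The summed level of 14 granulocyte and monocyte genes lay between 188 and 588 CPM in *WT Phf6,RE9a* and between 1127 and 4013 CPM in *VC Phf6,RE9a* libraries, with 13 of 14 higher. The summed level of 8 mast cell and progenitor genes lay between 18842 and 29919 CPM against 4967 and 5416 CPM, with 7 of 8 lower. All 9 erythroid genes were higher (summed level 1498 to 2274 against 5269 to 6249.8 CPM). So were all 4 B cell genes tested (6 listed, sum 0.611 to 1.10 against 9.03 to 26.9 CPM). The 1 T cell gene tested was also higher (7 listed, sum 1.23 to 1.82 against 6.59 to 9.15 CPM). Of 7 macrophage genes tested, 1 was higher (8 listed, sum 13.4 to 26.6 against 30.6 to 35.1 CPM). Of 10 proliferation genes, 5 were higher (sum 1901 to 2894 against 3188 to 3390 CPM). Each sum takes in every listed gene, tested or not. The proliferation count ranged from 1 without *VC Phf6,RE9a* replicate 12 to 9 without *WT Phf6,RE9a* replicate 3, and was 2 without *WT Phf6,RE9a* replicate 1 or *VC Phf6,RE9a* replicates 11 or 13. A further macrophage gene was higher without *WT Phf6,RE9a* replicate 2 (*C1qb*) and another lower without replicate 3 (*Cd163*). The summed adipocyte markers reached at most 2.36 and 4.96 CPM, with 0 of 1 tested gene past the threshold, and the hepatocyte markers reached at most 0.407 and 0.757 CPM, with 4 of 6 at 0 in all libraries. Their part in the results on lipid synthesis was not tested.

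Most lipid synthesis genes that passed the test were lower in *VC Phf6,RE9a* cells. In the counts, 32 of the 33 genes had enough reads to be tested, and 20 of these passed an adjusted p of 0.05, 62.5% against 44.2% of all genes tested. Of the 32, 17 were lower (53.1%, against 22.7% of all genes tested) and 3 were higher (9.38%, against 21.5%). The median log2 fold change was -0.49 over these 32 genes and 0.01 over all genes tested. The libraries of both groups did not overlap for 22 of the 32, beside 57.3% of all genes tested. The 8 lower genes that changed by at least 2-fold were *Fads2*, *Hmgcs1*, *Insig1*, *Msmo1*, *Cyp51*, *Fasn*, *Stard4* and *Mvd*. In bulk samples, fewer cells of a type and less RNA per cell cannot be told apart.

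**Figure D1:**
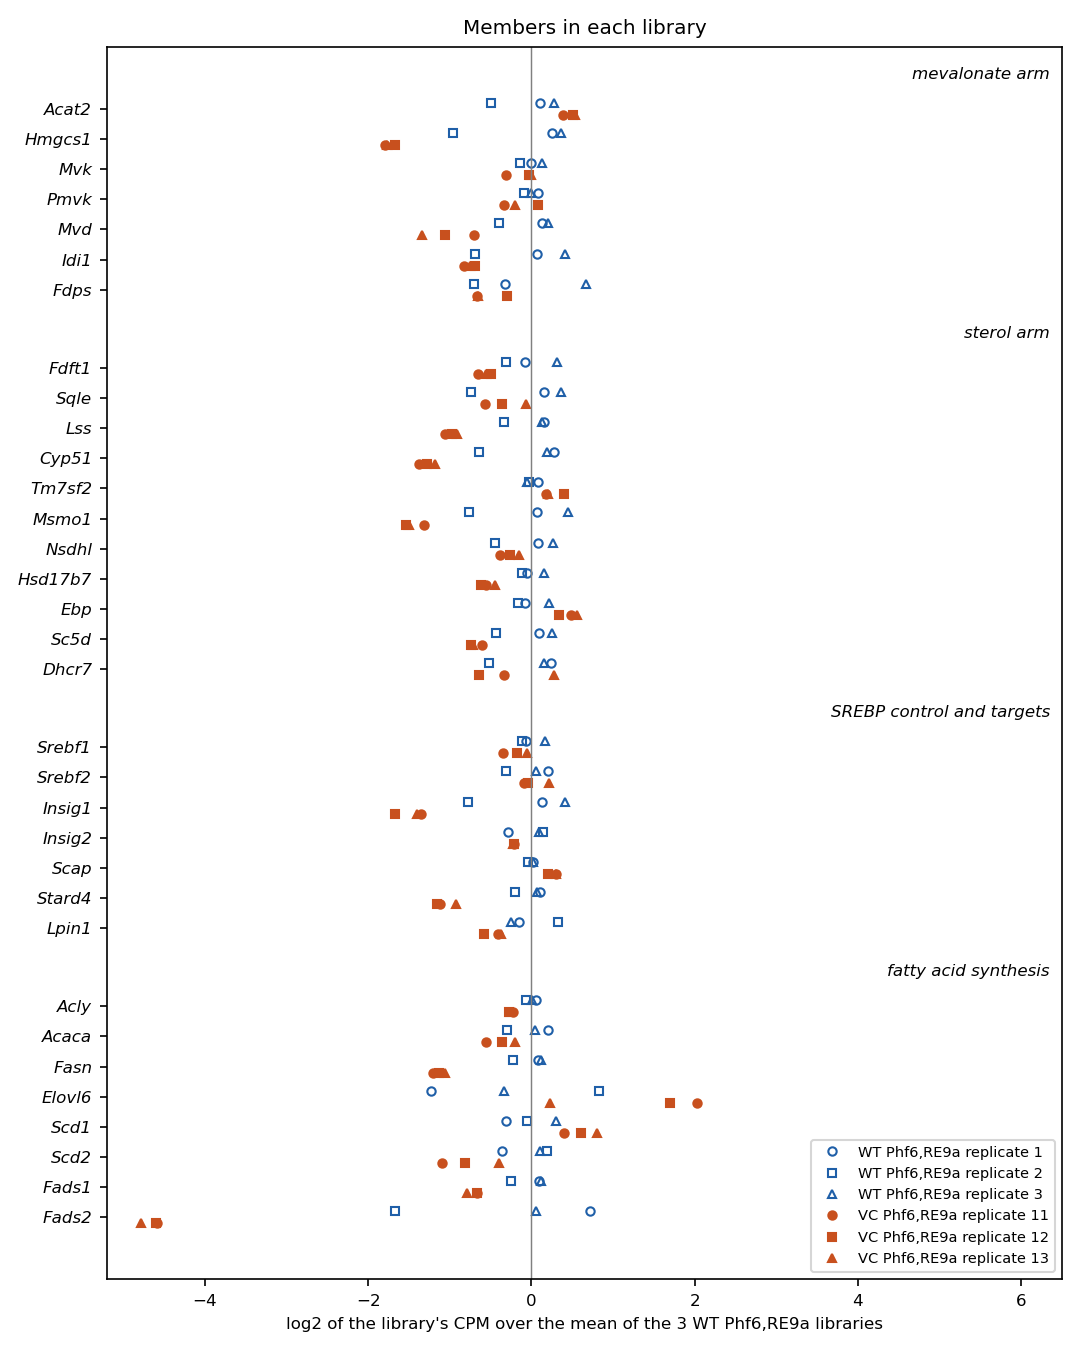
Level of each of the 33 genes in each library, as log2 of its CPM over the mean of the 3 *WT Phf6,RE9a* libraries (open blue symbols: *WT Phf6,RE9a* replicates; filled orange symbols: *VC Phf6,RE9a* replicates), with genes grouped by role. *WT Phf6,RE9a* replicate 2, the open square, is the lowest of its group for 27 of the 33 genes.

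The libraries of *WT Phf6,RE9a* cells were spread more widely on these genes than those of *VC Phf6,RE9a* cells. Replicate 2 was the lowest of the 3 *WT Phf6,RE9a* libraries for 27 of the 33 genes and for 15 of the 17 lower genes, whereas it was the lowest for 37.7% of the 13893 tested genes with counts in every library. The median ratio of the highest to the lowest library was 1.49 among *WT Phf6,RE9a* and 1.16 among *VC Phf6,RE9a* libraries, beside 1.35 and 1.19 over those 13893 genes. Without *WT Phf6,RE9a* replicate 2, 18 genes were lower and 2 were higher. The 10 genes *Fads2*, *Fasn*, *Stard4*, *Lss*, *Fads1*, *Cyp51*, *Hmgcs1*, *Insig1*, *Msmo1* and *Mvd* were lower in every fit that left out 1 library. The share of all genes tested that stayed lower in every such fit was not computed, so this count has no background beside it. The other 7 lower genes and the 3 higher genes each lost their call without at least 1 library, and those libraries are named below beside each gene.

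The 8 genes that fell by at least 2-fold lie on chromosomes 5, 8, 11, 13, 18 and 19, and 7 of them had a start site in the RefSeq promoter table used here (*Stard4* did not). Their 220 bases before the start, on GRCm38.p6, are shown because these genes were lower by at least 2-fold. Whether they share a regulator was not tested. Only *Hmgcs1* was to be shown by the rule fixed for sequences, and the other 6 were added after the values were seen. The windows lie at chr19:10101504-10101723 (minus strand, *Fads2*), chr13:119690131-119690350 (plus strand, *Hmgcs1*), chr5:28071192-28071411 (plus strand, *Insig1*), chr8:64733579-64733798 (minus strand, *Msmo1*), chr5:4104698-4104917 (minus strand, *Cyp51*), chr11:120824548-120824767 (minus strand, *Fasn*) and chr8:122443423-122443642 (minus strand, *Mvd*). Each is printed 5′ to 3′ on the gene's strand. Capitals mark the core of the sterol regulatory element, the site bound by SREBP factors (TCACNCCAC), and the CCAAT box, the site of NF-Y (CCAAT, or ATTGG on the other strand). For 3 genes the RefSeq start lies inside the gene as deposited, so that 49 of the 220 bases of *Insig1*, 49 of *Cyp51* and 214 of *Msmo1*, its CCAAT boxes included, are within the deposited gene.
Fads2: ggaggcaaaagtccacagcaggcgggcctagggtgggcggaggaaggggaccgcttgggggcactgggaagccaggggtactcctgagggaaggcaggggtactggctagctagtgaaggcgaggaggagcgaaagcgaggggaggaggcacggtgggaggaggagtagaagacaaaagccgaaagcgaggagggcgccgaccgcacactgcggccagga
Hmgcs1: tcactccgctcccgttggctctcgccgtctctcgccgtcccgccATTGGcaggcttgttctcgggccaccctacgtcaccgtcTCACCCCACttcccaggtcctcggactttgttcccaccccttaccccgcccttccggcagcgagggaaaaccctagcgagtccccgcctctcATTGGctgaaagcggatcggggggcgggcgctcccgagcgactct
Insig1: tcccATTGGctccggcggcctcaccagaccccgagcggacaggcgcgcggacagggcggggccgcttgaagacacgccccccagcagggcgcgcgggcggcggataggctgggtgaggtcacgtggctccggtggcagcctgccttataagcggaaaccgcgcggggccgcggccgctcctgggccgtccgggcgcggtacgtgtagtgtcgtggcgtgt
Msmo1: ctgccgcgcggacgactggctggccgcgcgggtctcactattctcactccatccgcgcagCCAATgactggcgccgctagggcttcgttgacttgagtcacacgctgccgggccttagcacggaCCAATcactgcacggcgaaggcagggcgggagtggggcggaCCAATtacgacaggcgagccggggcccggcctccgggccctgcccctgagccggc
Cyp51: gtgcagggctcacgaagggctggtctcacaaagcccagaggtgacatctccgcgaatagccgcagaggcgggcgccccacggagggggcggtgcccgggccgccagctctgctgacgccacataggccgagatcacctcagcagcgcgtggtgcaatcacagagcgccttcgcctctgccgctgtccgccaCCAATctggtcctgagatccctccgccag
Fasn: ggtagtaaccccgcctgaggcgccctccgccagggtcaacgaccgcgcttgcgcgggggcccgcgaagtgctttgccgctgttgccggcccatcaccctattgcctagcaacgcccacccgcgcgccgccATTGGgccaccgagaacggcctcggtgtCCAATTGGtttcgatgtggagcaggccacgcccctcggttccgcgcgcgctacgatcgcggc
Mvd: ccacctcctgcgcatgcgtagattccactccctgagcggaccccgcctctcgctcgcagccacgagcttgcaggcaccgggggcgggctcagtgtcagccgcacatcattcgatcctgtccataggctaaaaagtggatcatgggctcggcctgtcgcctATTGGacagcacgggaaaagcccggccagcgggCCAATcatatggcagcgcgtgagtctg

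Across 26 of the 33 genes with an entry (all but *Fads1*, *Fdft1*, *Fdps*, *Scd1*, *Scd2*, *Sqle* and *Stard4*), these motifs were searched on both strands from 250 bases before to 50 bases after each start. The 26 genes have 34 such windows (5 genes have more than 1), and a gene is counted if any of its windows holds the motif, both here and over all genes. The letters TCACNCCAC were found for 1 of 26 genes, *Hmgcs1*, 137 to 129 bases before its start, and for 1.44% of 27025 genes. The CCAAT box was found for 20 of 26 genes, 11 of the 13 lower genes included, and for 41.1% of all genes. The Sp1 box GGGCGG, which NF-Y and SREBP sites often neighbour, was found for 21 of 26 genes, again with 11 of the 13 lower genes, and for 38.2% of all genes. Most of the 26 genes that were not lower held the CCAAT box too, and most held the Sp1 box. All genes here means all with an entry, including genes that were not tested for change. The E-box CACGTG was found for 5 of 26 genes (*Dhcr7*, *Hsd17b7*, *Insig1*, *Sc5d* and *Scap*) and for 8.09% of all genes. The shorter CACNCCAC, which lies within the first motif and was added after the values were seen, was found for 3 genes (*Acat2*, *Hmgcs1* and *Insig1*) and for 7.12% of all genes. In the printed windows, *Msmo1* and *Fasn* each hold 3 matches to the CCAAT box, some of them overlapping in *Fasn*. *Fads2*, the gene with the largest fall, holds none. Only exact matches to these letters were sought, so a sterol element with other letters would be left unmarked.

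**Figure D2:**
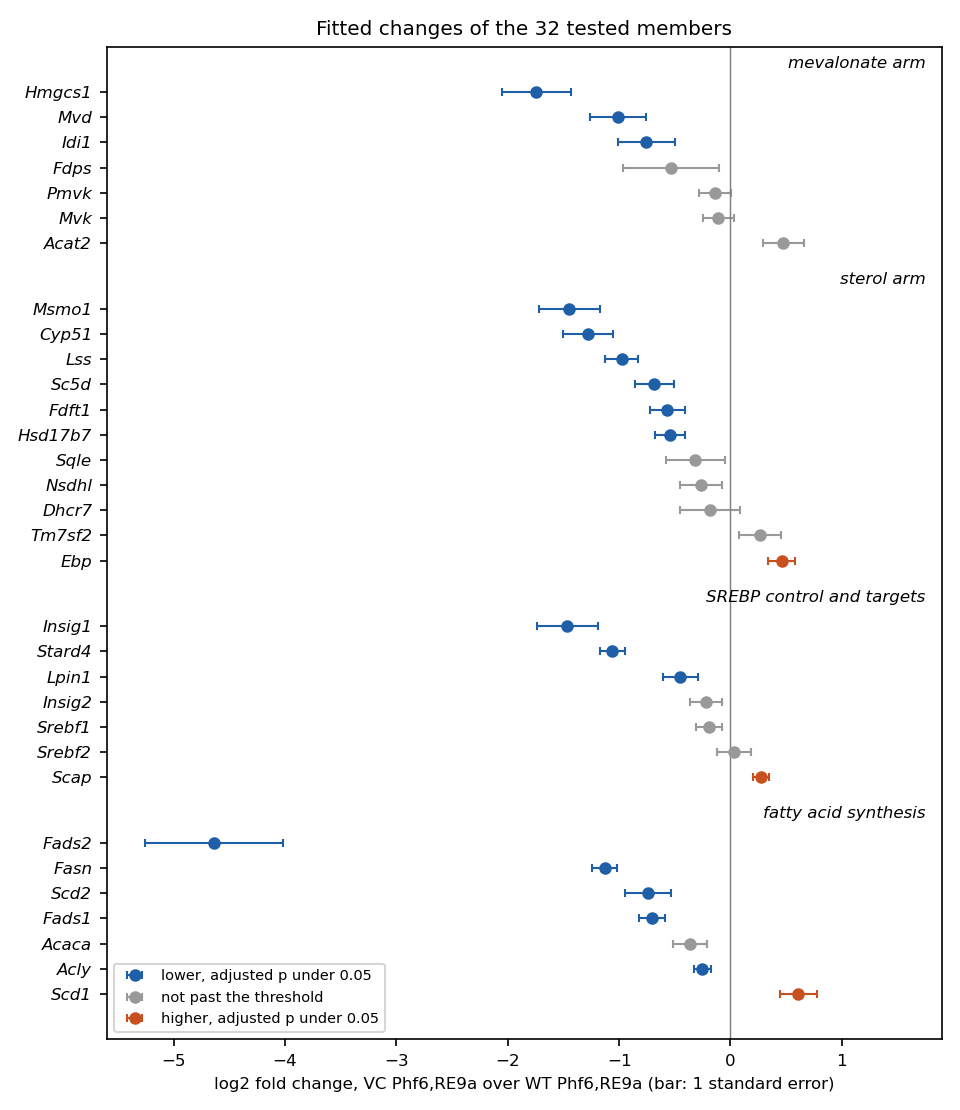
Fitted log2 fold change (*VC Phf6,RE9a* over *WT Phf6,RE9a*) of the 32 tested genes, ordered within each role, with bars of 1 standard error from edgeR; blue genes were lower and orange genes higher at an adjusted p under 0.05, and grey genes did not pass. *Fads2* stands at -4.64 and the other lower genes lie between -1.74 and -0.25.

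The mevalonate arm turns acetyl-CoA into the isoprenoid farnesyl diphosphate, and 3 of its 7 genes fell, 0 rose and 4 did not pass the threshold (median log2 fold change -0.54). Lower genes were 42.9% of those tested in this arm, against 22.7% of all genes tested. The share past the threshold in either direction was 42.9%, against 44.2%. Neither DESeq2 nor limma called a higher gene of this arm, and edgeR gave 1, *Acat2*, at an unadjusted p under 0.05. *Hmgcs1*, which condenses acetoacetyl-CoA to HMG-CoA and holds the sterol element printed above, lies on chromosome 13 from 119690379 to 119708260. Its level was 98.7, 42.5 and 106 CPM in *WT Phf6,RE9a* libraries and 23.9, 25.9 and 24.2 CPM in *VC Phf6,RE9a* libraries. The groups did not overlap, and the *VC Phf6,RE9a* libraries lay close together while replicate 2 of *WT Phf6,RE9a* was well under its fellows. The log2 fold change was -1.74 (standard error 0.31, adjusted p = 0.00331), and without that library it was -2.07 with a standard error of 0.084.

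*Mvd*, the decarboxylase that yields isopentenyl diphosphate (chromosome 8, 122433601 to 122443422), had 12.98, 9.02 and 13.7 CPM in *WT Phf6,RE9a* and 7.32, 5.71 and 4.69 CPM in *VC Phf6,RE9a* libraries. Each *VC Phf6,RE9a* library was under each *WT Phf6,RE9a* library, and the log2 fold change was -1.01 (standard error 0.25, adjusted p = 0.0134). *Idi1*, which isomerises isopentenyl diphosphate, had 27.5, 16.2149 and 34.6 CPM against 14.8, 16.1974 and 15.4 CPM. Its groups nearly touched, with *WT Phf6,RE9a* replicate 2 level with *VC Phf6,RE9a* replicate 12. The log2 fold change, -0.76 (standard error 0.25, adjusted p = 0.0433), kept its call only without *WT Phf6,RE9a* replicate 2 (-1.01, adjusted p = 0.00173), and without any other library the adjusted p lay between 0.097 and 0.121. *Idi1* shares 684 identical bases with the pseudogene *Gm13502*, which had at most 8 counts.

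The kinases between them did not pass. *Mvk*, mevalonate kinase, had 22.3 ± 2.06 against 20.7 ± 2.35 CPM (SD, n = 3, log2 fold change -0.11, standard error 0.14), and *Pmvk*, phosphomevalonate kinase, had 22.8 ± 1.36 against 20.7 ± 3.18 CPM (-0.14, standard error 0.14). For both, the libraries of the groups were interleaved. *Acat2*, the thiolase that makes acetoacetyl-CoA, had 29.7, 19.7 and 33.5 CPM in *WT Phf6,RE9a* and 36.0, 39.3 and 40.1 CPM in *VC Phf6,RE9a* libraries. Its groups did not overlap, and its log2 fold change, 0.48 (standard error 0.19), missed the threshold at an adjusted p = 0.0728, which became 0.0317 without *WT Phf6,RE9a* replicate 3. Reads of *Acat2* are uncertain, since it is 97.7% identical to *Acat3* over 1477 bases and shares 445 bases at 98.7% with *Tcp1*. *Acat3* had 3 to 13 counts. *Tcp1* had 3654, 3031 and 4617 counts in *WT Phf6,RE9a* and 5500, 5558 and 5588 counts in *VC Phf6,RE9a* libraries, higher in the same group as *Acat2*. Whether its reads entered the count of *Acat2* was not tested. *Fdps*, farnesyl diphosphate synthase, had only 15, 11 and 32 counts against 13, 17 and 13 counts, and at this depth no difference was detectable (log2 fold change -0.54, standard error 0.43, adjusted p = 0.347). *Fdps* also overlaps *Gm43738* on the same strand, which had 0 counts in every library. How reads shared by both were counted is not given in the sources used here, so the level of *Fdps* is uncertain. The summed level of the arm was 216, 129.9 and 237 CPM in *WT Phf6,RE9a* and 119, 134 and 127 CPM in *VC Phf6,RE9a* libraries, so that the groups overlapped through replicate 2 of *WT Phf6,RE9a*.

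**Figure D3:**
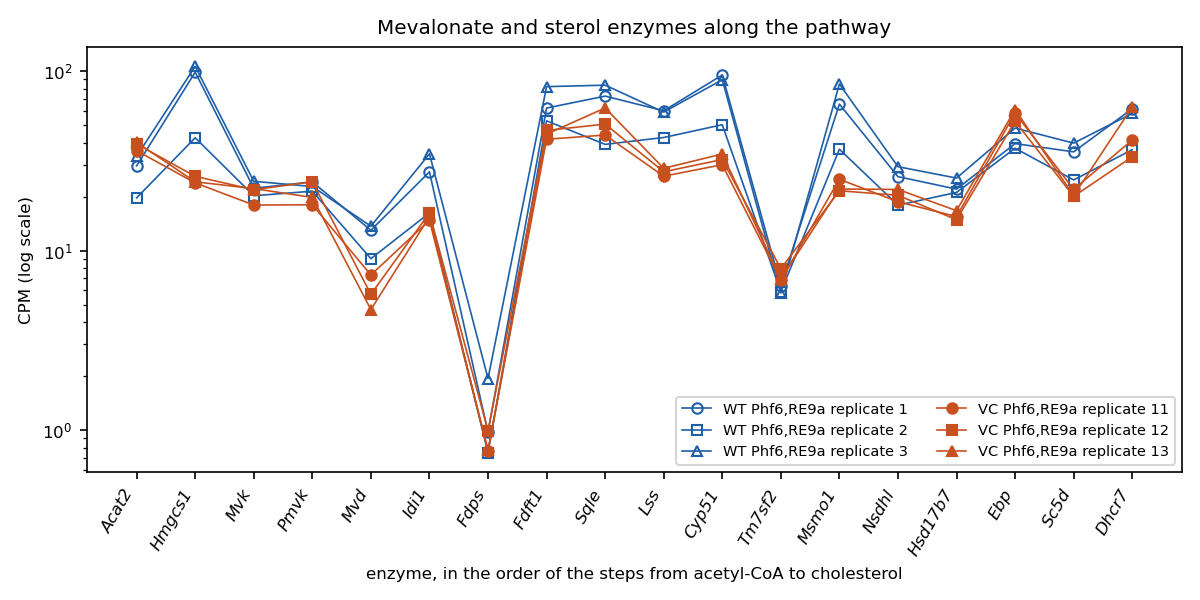
CPM on a log scale of the 18 enzymes of the mevalonate and sterol arms in the order in which they act, with 1 line per library (open blue: *WT Phf6,RE9a*; filled orange: *VC Phf6,RE9a*). The lines part at *Hmgcs1*, *Mvd*, *Lss*, *Cyp51* and *Msmo1*, and meet or cross at *Mvk*, *Pmvk* and *Dhcr7*.

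The sterol arm carries farnesyl diphosphate through squalene and lanosterol to cholesterol, and 6 of its 11 genes fell, 1 rose and 4 did not pass (median log2 fold change -0.54). Lower genes were 54.5% of this arm, against 22.7% of all genes tested, and 63.6% passed in either direction, against 44.2%. *Msmo1*, the methyl sterol oxidase that starts removal of the C4 methyl groups, lies on chromosome 8 from 64718139 to 64733792. It had 65.5, 36.7 and 84.7 CPM in *WT Phf6,RE9a* libraries and 25.0, 21.6 and 22.0 CPM in *VC Phf6,RE9a* libraries. No libraries overlapped, and the level in *VC Phf6,RE9a* was 36.7% of that in *WT Phf6,RE9a* cells, and the fitted change in log2 was -1.45 (standard error 0.27, adjusted p = 0.00430). Its longest transcript shares up to 203 bases at 95% identity or more with transcripts of other genes, so reads from that stretch are uncertain.

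*Cyp51*, the lanosterol demethylase (chromosome 5, 4081145 to 4104746), had 95.1, 50.3 and 89.5 CPM in *WT Phf6,RE9a* and 30.1, 32.2 and 34.5 CPM in *VC Phf6,RE9a* libraries. All *VC Phf6,RE9a* libraries were lower, and the log2 fold change was -1.28 (standard error 0.22, adjusted p = 0.00316). It overlaps 166 bases of *Akap9* on the other strand, which had 2095 to 2402 counts in *WT Phf6,RE9a* and 1662 to 1822 counts in *VC Phf6,RE9a* libraries, and whether the counting used strand is not given in the sources used here. *Lss*, which closes squalene epoxide into lanosterol (chromosome 10, 76531588 to 76557138), had 60.1, 42.7 and 59.1 CPM against 26.0, 27.5 and 28.8 CPM. The groups lay well apart (log2 fold change -0.98, standard error 0.14, adjusted p = 0.00146).

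The other lower sterol enzymes changed by less. *Sc5d*, the desaturase near the end of the route, went from 33.3 ± 7.71 to 20.8 ± 1.05 CPM (SD, n = 3, log2 fold change -0.68, standard error 0.18, adjusted p = 0.0162), and its adjusted p was 0.0592 without *VC Phf6,RE9a* replicate 12 and 0.0510 without replicate 13. *Hsd17b7*, the 3-keto sterol reductase, went from 22.8 ± 2.24 to 15.7 ± 0.936 CPM (-0.54, standard error 0.13, adjusted p = 0.0121), with an adjusted p of 0.0505 without replicate 11 and 0.0526 without replicate 12 of *VC Phf6,RE9a*. *Fdft1*, squalene synthase and the first step that leads only to sterols, went from 65.7 ± 14.8 to 44.3 ± 2.50 CPM (-0.57, standard error 0.16, adjusted p = 0.0218). The groups of these 3 genes did not overlap. The call of *Fdft1* was lost without each *VC Phf6,RE9a* library in turn (adjusted p from 0.0534 to 0.0806), and 774 of its bases lie opposite *Ctsb*, which had 3486 to 5009 counts.

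*Ebp*, the sterol isomerase, was the sterol enzyme that rose. It had 39.5, 37.2 and 48.2 CPM in *WT Phf6,RE9a* and 58.4, 52.6 and 61.1 CPM in *VC Phf6,RE9a* libraries. Every *VC Phf6,RE9a* library was higher than every *WT Phf6,RE9a* library (log2 fold change 0.46, standard error 0.12, adjusted p = 0.0172), and the adjusted p was 0.0581, 0.0587 and 0.0661 without *WT Phf6,RE9a* replicate 1, *VC Phf6,RE9a* replicate 11 and *VC Phf6,RE9a* replicate 13.

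For 2 of the sterol enzymes that did not pass, *WT Phf6,RE9a* replicate 2 decided the call. *Sqle*, squalene epoxidase and a slow step of the route, had 72.6, 39.1 and 83.5 CPM in *WT Phf6,RE9a* and 44.0, 50.7 and 62.3 CPM in *VC Phf6,RE9a* libraries. Replicate 2 was the lowest of all 6 libraries, and the log2 fold change, -0.31 (standard error 0.27, adjusted p = 0.372), became -0.59 (adjusted p = 0.0209) without it. *Nsdhl*, a C4 decarboxylase, had 25.8, 17.9 and 29.4 CPM against 18.7, 20.3 and 21.9 CPM, with a log2 fold change of -0.26 (adjusted p = 0.295) that became -0.45 (adjusted p = 0.0283) without that library. *Dhcr7*, the last reductase, had 61.7, 36.5 and 58.2 CPM against 41.3, 33.3 and 63.1 CPM, with both groups spanning the same range (-0.18, standard error 0.27). *Tm7sf2*, a C14 sterol reductase, had 6.02 ± 0.296 against 7.24 ± 0.593 CPM, and its groups did not overlap although the log2 fold change, 0.27 (standard error 0.19, adjusted p = 0.290), did not pass. *Tm7sf2* overlaps *Vps51* on the same strand, which had 70 to 103 counts. The summed level of the sterol arm was 546, 365 and 605 CPM in *WT Phf6,RE9a* and 329.5, 328 and 382 CPM in *VC Phf6,RE9a* libraries.

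Of the 7 genes that sense or answer to sterols, 3 fell (*Insig1*, *Stard4* and *Lpin1*, all known SREBP targets), 1 rose (*Scap*) and 3 did not pass, both SREBP factors included (median log2 fold change -0.22). Of these 7, 57.1% passed, against 44.2% of all genes tested, and 42.9% were lower, against 22.7%. *Srebf2*, the factor of the sterol enzymes, had 512, 357 and 460.15 CPM in *WT Phf6,RE9a* and 416, 429.9 and 514 CPM in *VC Phf6,RE9a* libraries. Its libraries were interleaved (log2 fold change 0.03, standard error 0.15, adjusted p = 0.886), and the sign turned without *WT Phf6,RE9a* replicate 2 (-0.11) or *VC Phf6,RE9a* replicate 13 (-0.07). *Srebf1*, the factor of the fatty acid enzymes, had 278, 269 and 327 CPM against 228, 257 and 281 CPM, also overlapping (-0.19, standard error 0.11, adjusted p = 0.216). These are counts per gene, so the *Srebf1* isoforms cannot be told apart, and *Rai1* overlaps it on the other strand.

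*Scap*, which carries the SREBP factors to the Golgi, had 123, 118 and 123 CPM in *WT Phf6,RE9a* and 150.2, 140.5 and 149.8 CPM in *VC Phf6,RE9a* libraries. The groups did not overlap and the rise was small (log2 fold change 0.27, standard error 0.07, adjusted p = 0.0198), with an adjusted p of 0.0818 without replicate 11 and 0.0827 without replicate 13 of *VC Phf6,RE9a*. *Insig1*, an SREBP target that retains SCAP in the endoplasmic reticulum (chromosome 5, 28071363 to 28078662), had 123, 65.7 and 149 CPM against 44.2, 35.5 and 42.8 CPM. Each *VC Phf6,RE9a* library was under each *WT Phf6,RE9a* library, and the level fell to 36.2% of its level with *Phf6* (log2 fold change -1.46, standard error 0.27, adjusted p = 0.00410). *Insig2*, its paralog, which is not driven by SREBP in the same way, had 21.6 ± 3.34 against 18.6 ± 0.0861 CPM (SD, n = 3), and the log2 fold change, -0.22 (standard error 0.14, adjusted p = 0.258), did not pass.

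*Stard4*, a carrier of cholesterol between membranes (chromosome 18, 33199355 to 33213862), had 166, 134 and 162 CPM in *WT Phf6,RE9a* and 70.7, 69.1 and 81.4 CPM in *VC Phf6,RE9a* libraries. It was lower in all *VC Phf6,RE9a* libraries (log2 fold change -1.06, standard error 0.11, adjusted p = 0.000323). *Lpin1*, a phosphatidate phosphatase that is also an SREBP target, had 241, 336 and 225 CPM against 202, 178 and 207 CPM, with replicate 2 the highest of the *WT Phf6,RE9a* libraries. The log2 fold change, -0.45 (standard error 0.16, adjusted p = 0.0481), lost its call without any library but *WT Phf6,RE9a* replicate 3, with an adjusted p between 0.0545 and 0.152.

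Of the genes of fatty acid synthesis, 5 of 7 tested were lower, 1 was higher and 1 did not pass (median log2 fold change -0.71). That is 85.7% past the threshold, against 44.2% of all genes tested, and 71.4% lower, against 22.7%. *Fasn*, the synthase that builds palmitate (chromosome 11, 120805846 to 120824547), had 336, 273 and 345 CPM in *WT Phf6,RE9a* and 137, 145 and 153 CPM in *VC Phf6,RE9a* libraries. The groups were far apart and each was tight (log2 fold change -1.13, standard error 0.11, adjusted p = 0.000234). The enzymes before it moved less. *Acly*, which makes cytosolic acetyl-CoA from citrate, went from 323 ± 13.9 to 271 ± 4.98 CPM (SD, n = 3, -0.25, standard error 0.08, adjusted p = 0.0338), and lost its call without *WT Phf6,RE9a* replicate 1 or any *VC Phf6,RE9a* library (adjusted p from 0.0849 to 0.118).

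*Acaca*, the acetyl-CoA carboxylase that commits acetyl-CoA to fatty acids, had 59.9, 42.1 and 53.7 CPM in *WT Phf6,RE9a* and 35.4, 40.5 and 45.0 CPM in *VC Phf6,RE9a* libraries. The groups overlapped at replicate 2 of *WT Phf6,RE9a* (log2 fold change -0.36, standard error 0.15, adjusted p = 0.0847), and without it the log2 fold change was -0.50 (adjusted p = 0.0158). Counts of *Acaca* are uncertain because the processed pseudogene *Gm5182* is 99.2% identical to it over 6118 of 9513 bases and had 99 to 169 counts. *Elovl6*, which extends palmitate, was not tested. It had 2, 8 and 4 counts in *WT Phf6,RE9a* and 21, 17 and 6 counts in *VC Phf6,RE9a* libraries, and at most 1.24 CPM in any library.

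The desaturases moved in different directions. *Fads2*, the delta-6 desaturase that opens the route to polyunsaturated fatty acids on chromosome 19 from 10064164 to 10101503, was read 537, 98 and 364 times in *WT Phf6,RE9a* libraries and 15, 15 and 13 times in *VC Phf6,RE9a* libraries, or 34.9, 6.65 and 22.0 CPM against 0.886, 0.874 and 0.772 CPM. The *WT Phf6,RE9a* libraries differed among themselves by up to 5.24-fold, the widest spread of the 33 genes in that group, and all were above every *VC Phf6,RE9a* library. The level in *VC Phf6,RE9a* was 4.02% of that in *WT Phf6,RE9a* cells. The log2 fold change, -4.64 (standard error 0.62, adjusted p = 0.000895), lay between -5.07 and -4.08 when libraries were left out. *Fads1*, the delta-5 desaturase next to it on chromosome 19 (10182888 to 10196870), had 126, 99.6 and 128 CPM against 74.2, 74.6 and 68.3 CPM. It fell without overlap (log2 fold change -0.71, standard error 0.11, adjusted p = 0.00209).

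*Scd2*, a stearoyl-CoA desaturase that makes monounsaturated fatty acids, had 853, 1250.0 and 1170.2 CPM in *WT Phf6,RE9a* and 511, 619 and 827 CPM in *VC Phf6,RE9a* libraries. *Scd1*, its paralog, had 85.4, 102 and 131 CPM against 140.2, 161 and 185 CPM. The groups did not overlap for either gene, and the paralogs moved in opposite directions: *Scd2* fell (log2 fold change -0.74, standard error 0.21, adjusted p = 0.0225) and *Scd1* rose (0.61, standard error 0.17, adjusted p = 0.0216). The call of *Scd2* was lost without *WT Phf6,RE9a* replicates 2 or 3 or *VC Phf6,RE9a* replicates 11 or 12 (adjusted p from 0.0538 to 0.0774). That of *Scd1* was lost without *WT Phf6,RE9a* replicates 1 or 2 or *VC Phf6,RE9a* replicates 12 or 13 (adjusted p from 0.0551 to 0.0732). The longest transcripts of both are 95.5% identical over 623 bases, so some reads could have been split between them.

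**Figure D4:**
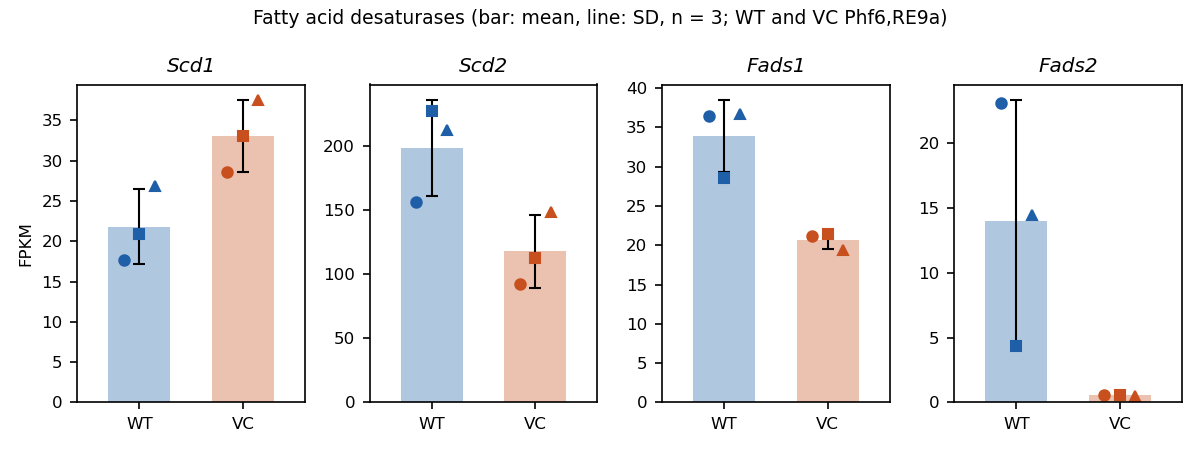
FPKM (fragments scaled to gene length and library size, as deposited) of the 4 fatty acid desaturases in each library, on axes that start at 0 (circles, squares and triangles: replicates 1, 2 and 3 of *WT Phf6,RE9a* in blue and 11, 12 and 13 of *VC Phf6,RE9a* in orange; bars: mean; lines: SD, n = 3). *Scd1* is higher and *Scd2*, *Fads1* and *Fads2* are lower in *VC Phf6,RE9a* cells.

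Per length of gene, the order of the levels was led by the same 4 genes in both groups. In mean FPKM, *Scd2* came first (199 ± 37.4 with and 118 ± 28.5 without *Phf6*), before *Srebf2* (61.3 ± 11.2 and 62.2 ± 6.97), *Acly* (60.8 ± 2.85 and 50.7 ± 0.892) and *Srebf1* (51.4 ± 5.31 and 44.7 ± 4.50). In *WT Phf6,RE9a* cells *Srebf2* and *Acly* did not differ beyond their spread. *Fads2* went from rank 16 of 33 (14.0 ± 9.38 FPKM) to rank 31 (0.553 ± 0.0432 FPKM), *Hmgcs1* from rank 12 to 21 and *Insig1* from rank 5 to 12. *Scd1* went from rank 10 to 5, *Ebp* from 11 to 6 and *Acat2* from 19 to 10. *Fdps* and *Elovl6* were last in both groups, at under 0.3 FPKM. The summed level of all 33 genes was 4055, 3881 and 4488 CPM in *WT Phf6,RE9a* libraries and 2755, 2901 and 3352 CPM in *VC Phf6,RE9a* libraries, of which *Scd2* is the largest single share.

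Other lists of lipid genes are given beside these counts, and the difference between lists was not tested. Of all genes tested, 21.5% were higher and 22.7% were lower. Among 11 genes of SREBP processing and turnover, all tested, 4 were higher and 2 lower (median log2 fold change 0.11). *Mbtps2*, the site-2 protease that frees the SREBP factors, fell from 27.5 ± 3.83 to 16.4 ± 0.956 CPM (SD, n = 3, -0.74, standard error 0.14, adjusted p = 0.00406), and *Syvn1*, a ubiquitin ligase of the endoplasmic reticulum, fell by 0.59 on the log2 scale (adjusted p = 0.0227). The call of *Syvn1* was lost without *WT Phf6,RE9a* replicates 1 or 2 or *VC Phf6,RE9a* replicates 12 or 13 (adjusted p from 0.0515 to 0.0767). *Rnf139*, a sterol-sensing ubiquitin ligase, rose from 32.9 ± 3.34 to 61.3 ± 4.61 CPM (0.90, standard error 0.11, adjusted p = 0.000580). *Aup1* (0.42, adjusted p = 0.00488) and *Ubxn8* (0.32, adjusted p = 0.0447), which act in degradation at the endoplasmic reticulum, also rose, and *Ubxn8* lost its call without any library but *WT Phf6,RE9a* replicate 2 (adjusted p from 0.0830 to 0.124).

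In the side branches that use isoprenoids for protein prenylation, ubiquinone and dolichol, 13 of 14 listed genes were tested. Of these, 1 was higher, *Fntb*, the farnesyltransferase beta subunit (26.0 ± 2.18 to 43.6 ± 3.10 CPM, log2 fold change 0.74, standard error 0.11, adjusted p = 0.00137), and 0 were lower by edgeR's test. At an unadjusted p under 0.05 edgeR gave 2 lower genes, and after adjustment DESeq2 gave 0, limma 1, edgeR with RLE size factors 1 and edgeR without *WT Phf6,RE9a* replicate 2 also 1. The count of higher genes was 2 without *WT Phf6,RE9a* replicate 1 and 3 without replicate 3. *Pggt1b*, a subunit of a prenyltransferase (-0.26, adjusted p = 0.0572), *Coq2* of ubiquinone synthesis (-0.26, adjusted p = 0.0703) and *Icmt*, the prenylcysteine methyltransferase (-0.00085, adjusted p = 0.994), did not pass.

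Of 26 further genes of fatty acid synthesis, elongation and activation, 18 were tested, with 5 higher and 5 lower. *Elovl5*, which extends polyunsaturated chains between the steps of *Fads2* and *Fads1*, fell from 128 ± 15.5 to 55.5 ± 4.64 CPM (log2 fold change -1.21, standard error 0.11, adjusted p = 0.000201). *Elovl7* (-0.71, adjusted p = 0.00173), the citrate carrier *Slc25a1* (-0.63, adjusted p = 0.00522), the elongation reductase *Hsd17b12* (-0.54, adjusted p = 0.00232) and the acyl-CoA synthetase *Acsl4* (-0.47, adjusted p = 0.00226) fell too. *Acsl5*, another acyl-CoA synthetase, rose from 259 ± 41.1 to 442 ± 8.27 CPM (0.77, standard error 0.12, adjusted p = 0.00187).

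*Hacd2*, an elongation dehydratase, rose by 1.14 on the log2 scale (adjusted p = 0.00551), *Elovl1* by 0.39 (adjusted p = 0.0214, lost without *WT Phf6,RE9a* replicate 1 or *VC Phf6,RE9a* replicates 11 or 13) and *Acss2*, which activates acetate, by 0.53 (adjusted p = 0.0422). *Elovl2* had 0 counts in each *WT Phf6,RE9a* library and 73, 40 and 241 counts in *VC Phf6,RE9a* libraries, and was at least 36.2-fold higher against 3 counts per library, or at least 17.2-fold without *VC Phf6,RE9a* replicate 13. Without *VC Phf6,RE9a* replicate 11 or 13 the list had 3 higher genes, and *Acss2* lost its call without any library but *WT Phf6,RE9a* replicate 1. *Tecr*, the enoyl reductase, had 148 ± 22.6 against 152 ± 4.25 CPM and did not pass.

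Genes of sterol uptake, esterification and efflux and of the LXR receptors gave 5 higher and 7 lower of 22 tested (26 listed). *Nceh1*, a cholesteryl ester hydrolase, fell from 46.1 ± 4.38 to 5.51 ± 1.63 CPM (log2 fold change -3.06, standard error 0.22, adjusted p = 7.54e-05), and *Abca1*, the cholesterol exporter driven by LXR, from 47.3 ± 23.1 to 3.08 ± 0.308 CPM (-3.93, standard error 0.37, adjusted p = 0.000196). *Soat2*, which esterifies cholesterol, rose from 43.1 ± 4.20 to 97.0 ± 7.74 CPM (1.17, standard error 0.10, adjusted p = 0.000162). *Soat1*, which also esterifies cholesterol, was lower, and lost its call without any library but *WT Phf6,RE9a* replicate 3 (adjusted p from 0.0592 to 0.127). The lysosomal lipase *Lipa* (0.49, adjusted p = 0.00696), the carriers *Stard5* (0.62, adjusted p = 0.0186) and *Stard3* (0.34, adjusted p = 0.0224), and *Lrpap1* (0.27, adjusted p = 0.0311) were the other higher genes. The number of higher genes was 3 without *WT Phf6,RE9a* replicates 1 or 3 or *VC Phf6,RE9a* replicates 11 or 12, and 2 without *VC Phf6,RE9a* replicate 13, and it was also 3 without a count filter. *Lpcat3* (0.03, adjusted p = 0.800) and the LXR receptor *Nr1h2* (-0.24, adjusted p = 0.166) did not pass.

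Of 20 tested genes of fatty acid oxidation (23 listed), 8 were higher and 2 lower (median log2 fold change 0.19), and 5 were higher without *VC Phf6,RE9a* replicate 11. *Ehhadh*, a peroxisomal enzyme of oxidation, rose from 9.44 ± 0.346 to 16.3 ± 1.31 CPM (0.79, standard error 0.15, adjusted p = 0.00398). *Echs1* (-0.54, adjusted p = 0.00371) and *Acadl* (-0.47, adjusted p = 0.00803), enzymes of mitochondrial oxidation, fell, and *Decr1* (-0.25, adjusted p = 0.199) did not pass. Glycerolipid synthesis and lipid droplet genes gave 9 higher and 3 lower of 17 tested (19 listed, median 0.35). *Mgll*, the monoglyceride lipase, rose from 2.05 ± 1.55 to 37.9 ± 2.63 CPM (4.20, standard error 0.44, adjusted p = 0.000299) and *Gpam*, which starts glycerolipid synthesis, from 40.7 ± 4.43 to 75.0 ± 2.85 CPM (0.88, standard error 0.10, adjusted p = 0.000470). *Agpat4* rose by 0.78 on the log2 scale (adjusted p = 0.00234) and *Plin2*, a lipid droplet coat protein, did not pass (0.04, adjusted p = 0.850). The lower genes were *Agpat3* (-2.88, adjusted p = 0.000859), *Hilpda* (-2.25, adjusted p = 0.00101) and the triglyceride lipase *Pnpla2* (-0.29, adjusted p = 0.0382), and *Pnpla2* lost its call without any library but *WT Phf6,RE9a* replicate 2.

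**Figure D5:**
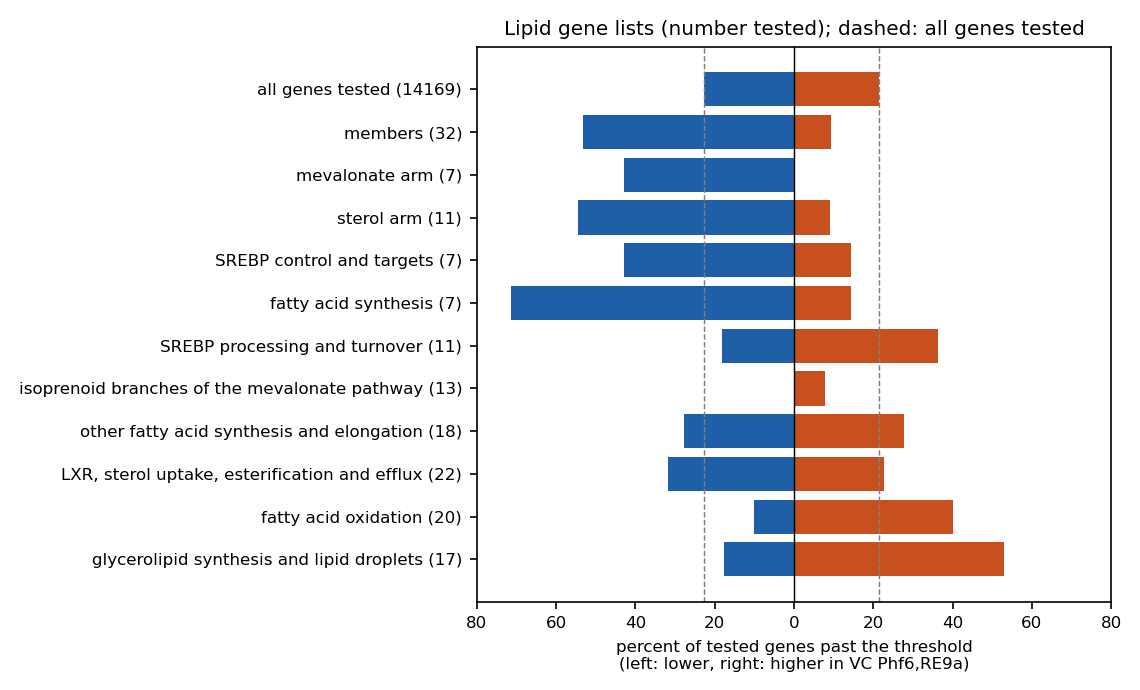
Percent of tested genes of each list that were lower (blue, left) and higher (orange, right) in *VC Phf6,RE9a* cells at an adjusted p under 0.05, with the number tested in brackets and the shares over all genes tested as dashed lines. The 33 genes (members) and each of their roles pass the dashed line on the left alone, SREBP processing, fatty acid oxidation and glycerolipid synthesis pass it on the right alone, other fatty acid synthesis and the list of uptake and efflux pass both, and the isoprenoid branches pass neither.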

How the data were processed

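The 6 libraries (TruSeq kit, 150-base paired reads), 3 from each genotype, were read from a deposited table. The authors deposited raw read counts for each Ensembl gene. The deposited FPKM values were derived by the authors from these counts, with their own gene lengths and a scaled library size. The table also holds the authors' group means, log2 fold changes and p-values, which were not used. The submitters' processing notes name Bowtie 0.12.0 and mm8, but 98.3% of the genes that GENCODE M21 lists have identical ends there, so the deposited coordinates are those of GRCm38. The counting tool and strandedness are not given in the sources used here.

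Genes with few counts were dropped by filterByExpr of edgeR 4.0.16 (R 4.3.3), which kept 14169 of 54532, and the rest were tested by quasi-likelihood after TMM scaling. P-values were adjusted over all tested genes by the Benjamini-Hochberg method, and 0.05 was the threshold. CPM is scaled by TMM, and standard errors are the log2 fold change over the square root of F. Depth ran from 15675358 to 16817994 counts per library, and no pair of libraries within a group agreed within sampling noise (chi-square over genes 10.8 to 41.3 per gene). On counts simulated for 13903 genes, 53 of 89 genes changed by 2-fold and 96 of 110 changed by 4-fold were recovered, all in the right direction, with 15 of 13704 unchanged genes called.

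Alternatives were DESeq2 1.42.0, RLE size factors, a count minimum of 10 in each library or none, limma 3.58.1 on log2(FPKM + 1), a minimum change of 2-fold, and each library left out in turn. Copies were sought with blastn 2.17.0 (at least 150 bases at 95% identity). The rule named all 33 genes and, in each further list, the 2 genes with the smallest p, the 2 with the highest FPKM and any gene behind a count of 5 or fewer, except 1 gene of the SREBP processing list that is not reported here. *Abca1* and *Soat1* were named outside this rule. Genes and lists were chosen with earlier results of these data known. The motif CACNCCAC and 6 of the promoter windows were added after the values were seen.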

Additional observations from a re-analysis of the deposited data

How the results depend on the processing

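Of the 33 genes, 17 were lower and 3 higher with DESeq2 and with RLE size factors, 16 and 2 without a count filter, 16 and 3 with at least 10 counts in every library, and 15 and 3 with limma on log2(FPKM + 1). Over all genes fitted, DESeq2 gave 3409 lower and 3089 higher of 26046, and RLE size factors 3268 and 2993 of 14169. Without a count filter there were 3381 and 3046 of 26046. The minimum of 10 counts gave 2717 and 2565 of 12087, and limma gave 3115 and 2945 of 14169. A minimum change of 2-fold left 8 lower and 0 higher, and 1625 lower and 1410 higher among the 14169 genes tested. With libraries left out in turn, the lower genes numbered from 10 (without *VC Phf6,RE9a* replicate 12) to 18 (without *WT Phf6,RE9a* replicate 2), with 11 without *VC Phf6,RE9a* replicate 11, and the higher genes from 1 (without *WT Phf6,RE9a* replicate 1, or *VC Phf6,RE9a* replicates 11 or 13) to 4 (without *WT Phf6,RE9a* replicate 3). The counts over all genes moved as well. With all libraries 3213 of all genes tested were lower. There were 2511 of 14580 without *VC Phf6,RE9a* replicate 11, 2574 of 14668 without replicate 12 and 3166 of 14738 without *WT Phf6,RE9a* replicate 2. Higher genes numbered 3047 of 14169 with all libraries, 2179 of 14580 without *VC Phf6,RE9a* replicate 11 and 3132 of 14736 without *WT Phf6,RE9a* replicate 3. By role, 3 sterol enzymes were lower without *VC Phf6,RE9a* replicate 12, and 3 fatty acid genes without replicates 11 or 12. The sign turned for *Dhcr7* without *VC Phf6,RE9a* replicate 12 (0.0035, range over libraries from -0.49), and for *Srebf2* when *WT Phf6,RE9a* replicate 2 (-0.11) or *VC Phf6,RE9a* replicate 13 (-0.07) was left out (range up to 0.14). The cause was not tested. The median log2 fold change lay between -0.59 and -0.35. Beyond the fits without a library, *Acly* (no count filter, adjusted p = 0.0752), *Scap* (no count filter, 0.0597), *Idi1* (limma, 0.0759) and *Lpin1* (limma, 0.0588, and 10 counts, 0.0549) lost their edgeR call. The median of all genes shifted by under 0.02 under each setting. No paired analysis was possible because the groups share no replicate numbers. In the simulation, where only 200 genes were changed, 59.6% of 2-fold changes were recovered. That share cannot be carried over to these data, where 44.2% of all genes tested passed the threshold. Small changes of genes such as *Mvk* could still be missed at this size, and the few counts of *Fdps* and *Elovl6* limit both.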
